A study of Mus musculus with 4 samples.

Results

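Cell cycle and DNA replication genes were examined in RNA-seq of brown adipose tissue (BAT) from mouse fetuses. The set holds 36 genes taken by their symbols, 17 that act in S phase and 19 that act in mitosis, and all 36 were found among the 22298 genes of the count table and kept among the 12888 genes tested. Pregnant C57BL/6 mice drank sterilized tap water, the control group, or water with 20% (w/v) fructose, the fructose group, and fetal BAT was taken at embryonic day 18.5 (E18.5). Each group had 2 libraries, and all 4 are labelled male and share strain, tissue and age. The sources used here do not give the number of fetuses or litters behind a library, so p-values measure only the spread between these libraries.

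Proliferating cells copy their DNA in S phase and separate the copies in mitosis. Before S phase the loading factor Cdc6 and the MCM helicase (Mcm2 to Mcm7) are placed on replication origins, Cdc45 and the GINS subunits Gins1 and Gins2 switch the helicase on, and Pcna clamps the polymerases while Rrm1, Rrm2 and Tyms make deoxynucleotides. Transcription of these genes is driven by E2F factors. Mitotic genes such as cyclin B, Cdk1 and the Aurora kinases are transcribed later in the cycle through FOXM1, B-MYB and the MuvB complex. In late fetal BAT, dividing precursors are present beside brown adipocytes that have left the cell cycle.

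Both gene classes have known control elements in their promoters, and promoters of called and uncalled genes are shown as examples. RefSeq promoters (GRCm38.p6, 250 bases before to 50 bases after a transcription start) were matched for 27 of the 36 genes, and Ccne2 was among the genes with no entry. Words searched on both strands were the E2F site TTTCCCGC, TTTCGCGC, TTTGCCGC or TTTGGCGC, the cell cycle genes homology region (CHR) TTTGAA or TTCGAA, and the CCAAT box of NF-Y, CCAAT. Matches are in capitals in the sequences of Mki67 and Ccnb2, the mitotic genes called in opposite directions, of the mitotic kinase gene Cdk1, and of the helicase genes Mcm5 and Mcm6.
Mki67 (chr7:135716330-135716629, minus strand): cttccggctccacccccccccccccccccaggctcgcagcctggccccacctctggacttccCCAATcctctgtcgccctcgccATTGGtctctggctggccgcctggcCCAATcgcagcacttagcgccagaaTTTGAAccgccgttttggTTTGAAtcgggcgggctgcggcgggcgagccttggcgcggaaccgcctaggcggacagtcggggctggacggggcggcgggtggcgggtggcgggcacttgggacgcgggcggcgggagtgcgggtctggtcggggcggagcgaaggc
Ccnb2 (chr9:70421505-70421804, minus strand): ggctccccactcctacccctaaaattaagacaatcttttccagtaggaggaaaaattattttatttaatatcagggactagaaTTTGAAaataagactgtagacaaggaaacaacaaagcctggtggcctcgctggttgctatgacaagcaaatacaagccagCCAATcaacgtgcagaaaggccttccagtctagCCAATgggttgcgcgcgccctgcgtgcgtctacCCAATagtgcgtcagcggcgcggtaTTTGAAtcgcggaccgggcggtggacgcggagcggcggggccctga
Cdk1 (chr10:69352863-69353162, minus strand): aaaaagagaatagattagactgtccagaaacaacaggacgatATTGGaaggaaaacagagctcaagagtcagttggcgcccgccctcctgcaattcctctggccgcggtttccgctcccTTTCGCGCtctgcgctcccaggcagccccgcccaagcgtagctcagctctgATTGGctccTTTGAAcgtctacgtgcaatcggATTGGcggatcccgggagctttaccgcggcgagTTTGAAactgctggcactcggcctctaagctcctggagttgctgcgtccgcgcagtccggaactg
Mcm5 (chr8:75109259-75109558, plus strand): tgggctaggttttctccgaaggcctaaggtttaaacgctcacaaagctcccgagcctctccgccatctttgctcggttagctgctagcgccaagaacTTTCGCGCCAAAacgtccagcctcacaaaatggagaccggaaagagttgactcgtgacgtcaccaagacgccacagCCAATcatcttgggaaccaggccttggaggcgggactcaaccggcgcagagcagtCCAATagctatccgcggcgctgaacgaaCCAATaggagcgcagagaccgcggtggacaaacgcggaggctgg
Mcm6 (chr1:128359656-128359955, minus strand): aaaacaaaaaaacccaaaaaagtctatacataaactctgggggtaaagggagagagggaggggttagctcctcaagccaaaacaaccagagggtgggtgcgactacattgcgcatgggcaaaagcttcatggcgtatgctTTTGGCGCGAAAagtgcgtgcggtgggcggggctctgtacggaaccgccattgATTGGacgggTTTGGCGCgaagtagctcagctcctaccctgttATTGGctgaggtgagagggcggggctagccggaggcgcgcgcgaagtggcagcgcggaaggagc
Mki67, Ccnb2 and Cdk1 each hold 2 CHR words and 3 CCAAT boxes, and Cdk1 also holds 1 E2F word. Mcm5 and Mcm6 hold no CHR word, and in each of them a pair of E2F words overlaps on opposite strands. A CHR together with at least 2 CCAAT boxes was found in 8 of 14 promoters of mitotic genes and in 2 of 14 promoters of S-phase genes, against 2.31% of all 32851 promoters. An E2F word was found in 5 of 14 S-phase promoters, Mcm5 and Mcm6 among them, and in 1 of 14 mitotic promoters, against 2.26% of all. These matches are letters in a window of 300 bases and do not show binding.

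The 4 libraries held between 18542897 and 23645147 counts on genes. Brown adipocyte markers were abundant throughout, with Ucp1, the uncoupling protein of heat-producing fat, between 9610 and 12430 CPM (counts scaled to a fixed library total after TMM normalization), and the summed level of 12 such markers overlapped between the groups. Summed over Y-linked Ddx3y, Eif2s3y, Uty and Kdm5d, control libraries 1 and 2 had 422 and 390 reads but neither fructose library had any (0 each), against the label male, so sex by these genes and maternal diet cannot be told apart in any comparison given here. The mitochondrial genome's share of all counts was 5.89% to 6.49% for control and 10.8% to 11.2% for fructose.

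Few cell cycle genes differed between control and fructose, and those that did went in both directions. Mki67, the gene of the proliferation antigen Ki-67, rose 3.34-fold, Ccne2, which encodes cyclin E2, rose 2.61-fold, and Ccnb2, which encodes cyclin B2, fell to 0.739 of its control level. The other 33 members did not pass the test (edgeR's quasi-likelihood test, Benjamini-Hochberg adjusted p under 0.05 over all genes tested). These 3 called genes are 8.33% of the members, while 26.2% of all genes tested were called, 15.5% higher and 10.7% lower. With each library left out in turn, 0 or 1 S-phase gene and 1 to 5 mitotic genes were called, 0 S-phase genes without fructose replicate 2 and 5 mitotic genes without control replicate 1. Because the libraries are bulk tissue, a change in the number of dividing cells and a change in RNA per dividing cell cannot be told apart.

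Summed levels of the gene classes overlapped between the groups. The 17 S-phase genes summed to 302 and 309 CPM in the control libraries and to 307 and 293 CPM in the fructose libraries. The 19 mitotic genes summed to 192 and 212 CPM in control and to 206 and 180 CPM in fructose. In each sum 1 fructose library lay between the control libraries and the other below them. The ratio of S-phase to mitotic summed level was 1.52 ± 0.0796 in control and 1.56 ± 0.0959 in fructose (SD, n = 2 libraries each), with single values of 1.57, 1.46, 1.49 and 1.63 that overlapped as well. With 2 libraries against 2, an exact permutation test of such a sum cannot give a p below 0.333 (two-sided) and was not run.

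**Figure D1:**
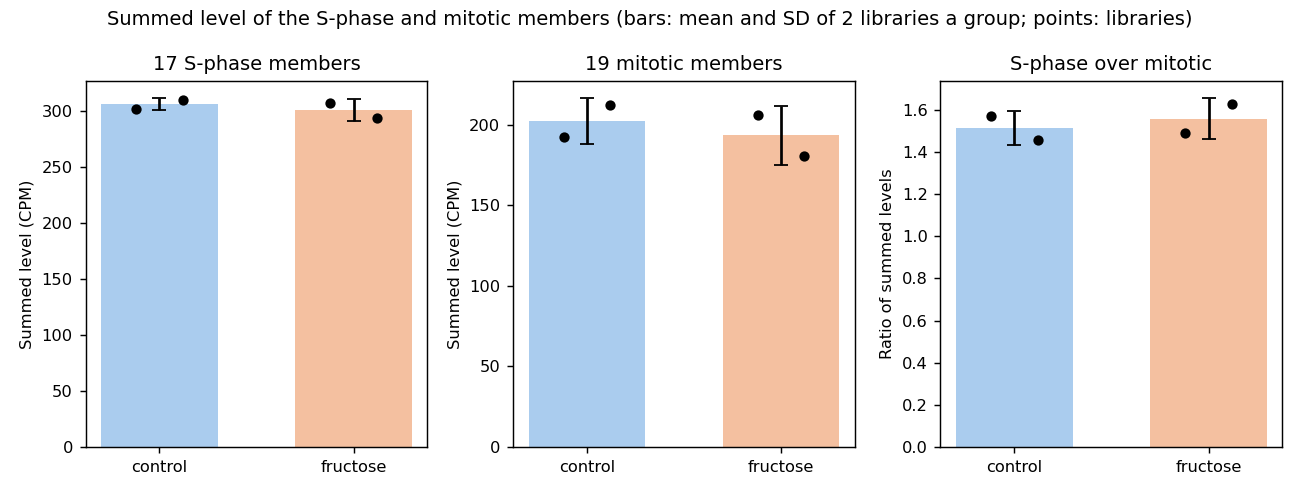
Summed level in CPM of the 17 S-phase genes and the 19 mitotic genes and the ratio of these sums, in control and fructose. Bars give the mean and error bars the SD of 2 libraries, and points the libraries; the points of the groups overlap in all 3 panels, with ratios from 1.46 to 1.63.

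Fold changes of single genes gave the same picture for the S-phase genes and a wider spread for the mitotic genes. The median log2 fold change (fructose against control) was 0.015 over the 17 S-phase genes, -0.028 over the 19 mitotic genes and 0.0025 over all genes tested. Of the S-phase genes 10 lay above 0 and 7 below, and 16 of them were between -0.15 and 0.22, with Ccne2 alone outside. Of the mitotic genes 8 lay above 0 and 11 below, spread from -0.44 for Ccnb2 to 1.74 for Mki67. Both fructose libraries lay above, or both lay below, both control libraries for 6 of 17 S-phase genes (2 higher and 4 lower) and 14 of 19 mitotic genes (6 higher and 8 lower), against 65.1% of all genes tested, 33.4% higher and 31.6% lower. The study's own thresholds (unadjusted p under 0.05 and fold change above 1.3) were applied here to the edgeR fit, whereas the paper used DESeq2. In this fit they called 17.6% of all genes higher and 6.18% lower (23.8% in all). Among the members, Ccne2, Mki67, Bub1, Cenpe and Top2a were higher and Ccnb2 was lower.

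**Figure D2:**
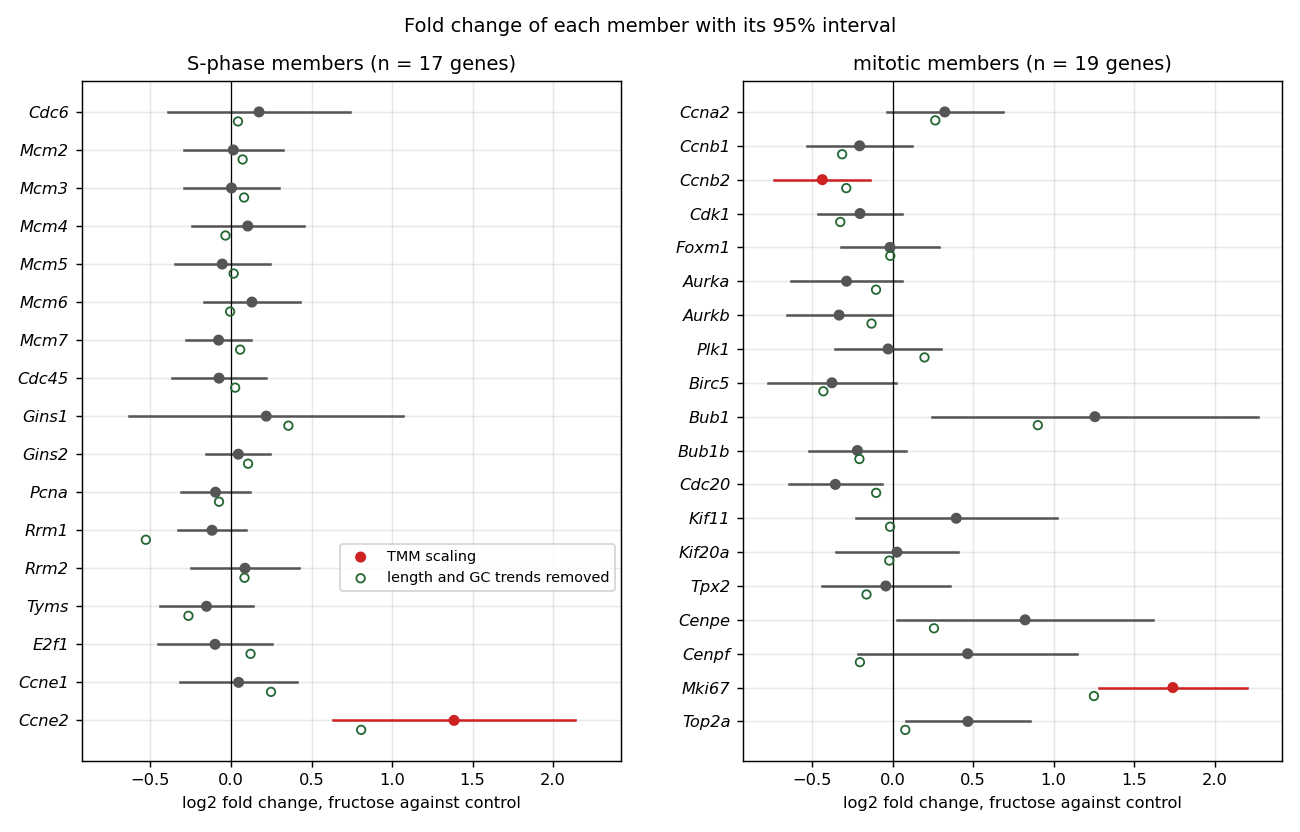
Log2 fold change of each gene, fructose against control, for 17 S-phase genes (left) and 19 mitotic genes (right). Filled points and lines give the edgeR estimate and its 95% interval, red where the adjusted p was under 0.05, and open circles the estimate with the transcript length and GC content trends removed; only Ccne2, Ccnb2 and Mki67 are red.

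Per kilobase of the longest annotated transcript, the members covered a wide range of levels. Pcna was highest, with 18.4 CPM per kb over the 4 libraries, followed by Mcm7 (12.9), Cdc20 (10.6), Gins2 (10.2) and Rrm1 (9.44). The lowest were Cenpe (0.166), Cenpf (0.177), Bub1 (0.216) and Mki67 (0.533), so that Mki67 ranked 33 of 36 by level. All 36 genes together made up 0.0474% to 0.0522% of the counts of a library after normalization. The level of Gins2, and with it the sum of the S-phase genes, may include reads of Gse1, whose exons overlap it on the opposite strand.

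**Figure D3:**
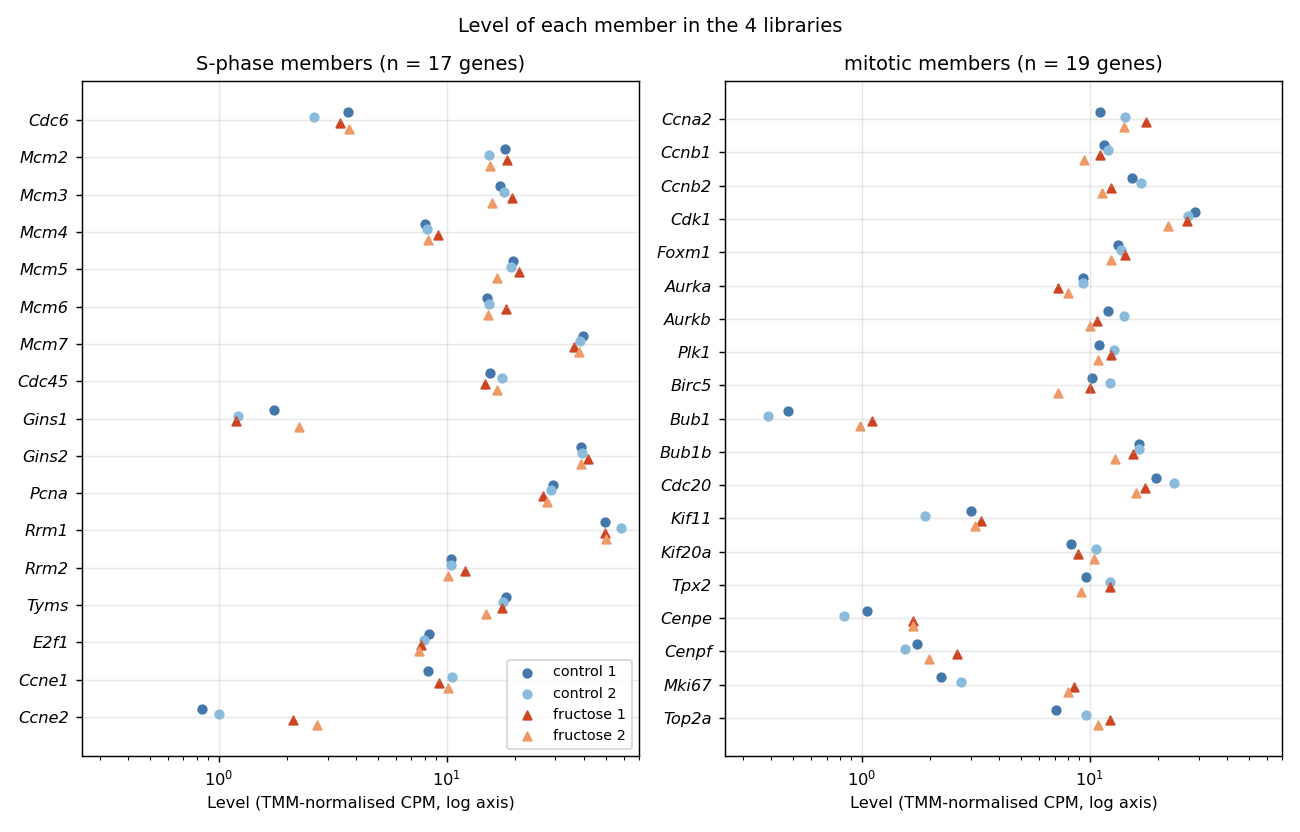
Level of each gene in the 4 libraries, as CPM after TMM normalization on a log axis, with 17 S-phase genes on the left and 19 mitotic genes on the right. Circles are control and triangles fructose libraries. The groups do not overlap for 20 of the 36 genes (55.6%, against 65.1% of all genes tested), Mki67, Ccne2 and Bub1 among them. They lie close together for the MCM genes.

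The licensing genes, which load the replicative helicase, showed no call. Mcm7, a helicase subunit and the highest of them, was at 39.8 and 38.6 CPM in control and 36.1 and 38.2 CPM in fructose, and its log2 fold change of -0.08 had a 95% interval from -0.28 to 0.12. Mcm2 (0.01), Mcm3 (0.0032), Mcm4 (0.10), Mcm5 (-0.05) and Mcm6 (0.13) had log2 fold changes within 0.13 of 0, each with a standard error of 0.13 to 0.16, and Cdc6, the low-level loading factor, had 0.17 with a standard error of 0.26. For all 7 genes the 95% interval lay within 1 log2 unit of 0. The 7 levels summed to 119 ± 2.87 CPM in control and 119 ± 8.46 CPM in fructose. Mcm7 shares 321 exon bases with Ap4m1 on the opposite strand, so its counts may include reads of Ap4m1.

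Firing factors and enzymes of DNA synthesis gave similar values. Cdc45, the helicase cofactor, had a log2 fold change of -0.07 and Gins2 of 0.05. Gins2 shares 2758 exon bases with Gse1 on the opposite strand, and Cdc45 shares 209 with Ufd1. The sources used here do not state whether strand was used in counting, so the levels and fold changes of Gins2 and Cdc45 are uncertain. Gins1, counted at only 22 to 55 reads a library, had 0.22 with an interval from -0.63 to 1.07. At this depth the data are compatible with any change of Gins1 between these bounds. Pcna, the polymerase clamp, was at 29.2 and 28.7 CPM in control and 26.5 and 27.6 CPM in fructose. Both fructose libraries of Pcna lay below both control libraries, but the difference (-0.10, standard error 0.10) did not pass the test. Rrm2, the regulated subunit of ribonucleotide reductase, had a log2 fold change of 0.09 and Tyms, thymidylate synthase, of -0.15.

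Rrm1, the large subunit of ribonucleotide reductase on chromosome 7 (GRCm38, 102441695 to 102469771, plus strand), was at 49.5 and 58.1 CPM in control and at 49.4 and 49.7 CPM in fructose. The 3 lower values nearly coincided and only control library 2 stood above them. Its log2 fold change was -0.12 (standard error 0.10, edgeR adjusted p = 0.40). Rrm1, the longest S-phase transcript at 5475 bases, was called only in settings that removed the transcript length or GC content trend described below. With both trends removed its log2 fold change was -0.53 (edgeR adjusted p = 0.012).

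Among regulators of the entry into S phase, only cyclin E2 was called. Ccne2 (ENSMUSG00000028212, chromosome 4, 11191351 to 11204779, plus strand) had 16 and 18 counts in control and 48 and 66 counts in fructose, equal to 0.845, 0.999, 2.12 and 2.70 CPM. Both fructose values were over both control values. The log2 fold change was 1.39 (standard error 0.34, 95% interval 0.63 to 2.14, edgeR adjusted p = 0.013). It was not called with the GC content trend removed (0.66, adjusted p = 0.21), with both trends removed (0.81, adjusted p = 0.17) or without fructose replicate 2 (1.20, adjusted p = 0.14), and 609 bases of its exons overlap Ints8 on the opposite strand. Its paralog Ccne1 did not pass the test (0.05, standard error 0.17), and neither did E2f1, the activating E2F factor (-0.10, standard error 0.16).

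Mki67 had the largest fold change of the 36 genes. The gene (ENSMUSG00000031004) lies on chromosome 7 from 135689784 to 135716361 on the minus strand, and its product coats mitotic chromosomes and is the usual histological marker of cycling cells. It had 42 and 49 counts in control and 192 and 196 counts in fructose, equal to 2.22, 2.72, 8.49 and 8.005 CPM. The values within each group lay close together and far from those of the other group. The log2 fold change was 1.74 (standard error 0.21, 95% interval 1.28 to 2.2, edgeR adjusted p = 0.00038), and it stayed called in all 17 alternative settings, between 1.24 with the length trend removed and 1.89 without control replicate 2. Skeletal muscle markers were higher in the same libraries (12 of 13 tested), and their part in this value was not tested.

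Top2a, the other gene of mitotic chromosomes in the set, did not pass the test. Top2a, the DNA topoisomerase that untangles sister chromatids, was at 7.07 and 9.65 CPM in control and 12.3 and 10.8 CPM in fructose. Its fructose libraries lay above its control libraries, yet its log2 fold change of 0.47 (standard error 0.18) had an adjusted p of 0.070. It passed with no filter on low counts (adjusted p = 0.040) and without control replicate 2 (0.71, adjusted p = 0.0035). The ratio of Mki67 to Top2a CPM was 0.313 and 0.282 in control but 0.691 and 0.740 in fructose. Mki67 made up 1.15% and 1.28% of the summed mitotic level in control and 4.12% and 4.44% in fructose. Without Mki67 the other 18 mitotic genes summed to 200 ± 13.8 CPM in control and 185 ± 17.8 CPM in fructose.

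Of the 5 genes of mitotic entry, 4 had a log2 fold change below 0 and only Ccnb2 was called. Ccnb2 (ENSMUSG00000032218, chromosome 9, 70407692 to 70421547, minus strand), which activates Cdk1, was at 15.4 and 16.8 CPM in control and 12.4 and 11.4 CPM in fructose. The groups did not overlap, and the log2 fold change was -0.44 (standard error 0.14, edgeR adjusted p = 0.036). Ccnb2 was not called by DESeq2 (adjusted p = 0.087), with scaling by library size only (-0.38, adjusted p = 0.071), with the length trend removed (-0.25, adjusted p = 0.24), with both trends removed (-0.29, adjusted p = 0.21), or without control replicate 2 (-0.37), fructose replicate 1 (-0.50) or fructose replicate 2 (-0.37). A processed pseudogene of Ccnb2 lies on chromosome 8 and is not among the genes listed in the table, so how reads shared with it were counted is not known. The same limit holds for Ccnb1, Pcna and Tyms, which also have processed pseudogenes that are not listed. Of the relatives of Ccnb2, Ccnb1 had -0.20 and Cdk1, the mitotic kinase itself, -0.20. Foxm1, the transcription factor of this gene group, had -0.02, and Ccna2, the cyclin of S phase and early mitosis, 0.32. None of these relatives was called. Ccna2 shares 510 exon bases with Exosc9 on the opposite strand, so its counts are uncertain. Without control replicate 2, Ccna2 was called (0.52, adjusted p = 0.017). The promoters of Ccnb2 and Mki67, printed above, each hold 2 CHR words and 3 CCAAT boxes, at different positions. The part of these words in the values was not tested.

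Of the 7 mitotic kinase and checkpoint genes, 6 lay below 0, Bub1 lay above, and none was called. Aurka and Aurkb, the Aurora kinases of spindle poles and centromeres, had log2 fold changes of -0.29 and -0.33, Birc5 (survivin, a partner of Aurkb) -0.38 and Plk1, a polo-like kinase, -0.03. Cdc20, which activates the anaphase-promoting complex, was at 19.5 and 23.4 CPM in control and 17.5 and 16.01 CPM in fructose, a difference of -0.36 with an adjusted p of 0.066. Bub1b, a checkpoint kinase-like protein, had -0.22. Its relative Bub1, a checkpoint kinase at kinetochores, went the other way, with 9 and 7 counts in control against 25 and 24 counts in fructose. The difference of Bub1, 1.26 with a standard error of 0.46, had an adjusted p of 0.065. Without control replicate 1, Aurkb (-0.45), Birc5 (-0.50) and Cdc20 (-0.48) passed the test.

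Motor and kinetochore genes held further values above 0 that missed the test. Cenpe, a kinetochore motor, had 20 and 15 counts in control and 38 and 41 in fructose (0.82, standard error 0.36, adjusted p = 0.12). Cenpf, a large kinetochore protein, had 0.47 and Kif11, the motor that pushes spindle poles apart, 0.40, with standard errors of 0.31 and 0.29. Kif20a (0.03) and Tpx2 (-0.04), which act at the central spindle and in spindle assembly, lay near 0 with overlapping groups. Kif20a shares 1271 exon bases with Cdc23 on the opposite strand, and the sources used here do not state whether strand was used in counting, so its counts are uncertain.

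The mitotic genes lay in an order that followed the length and base composition of their transcripts. Over the 19 mitotic genes, Spearman's rho between log2 fold change and transcript length was 0.770, and between log2 fold change and GC content -0.649, against 0.501 and -0.501 over the 12884 tested genes with a length. Over the 17 S-phase genes the same values were -0.0294 and -0.196. These are descriptions across genes that share the same 4 libraries. Taking 45% as a division, of the 6 mitotic genes with a GC content under it, 5 had a log2 fold change above 0 (median 0.47). Of the 13 mitotic genes at or above it, 10 were below 0 (median -0.20). Of the 15 S-phase genes at or above it, 9 were above 0 (median 0.015), and of the 2 under it, 1 was above 0. Mki67, with a transcript of 10061 bases and a GC content of 46.6%, and Cenpf, with 11130 bases, are the longest of the set, and Ccne2 has the lowest GC content, 36.3%.

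**Figure D4:**
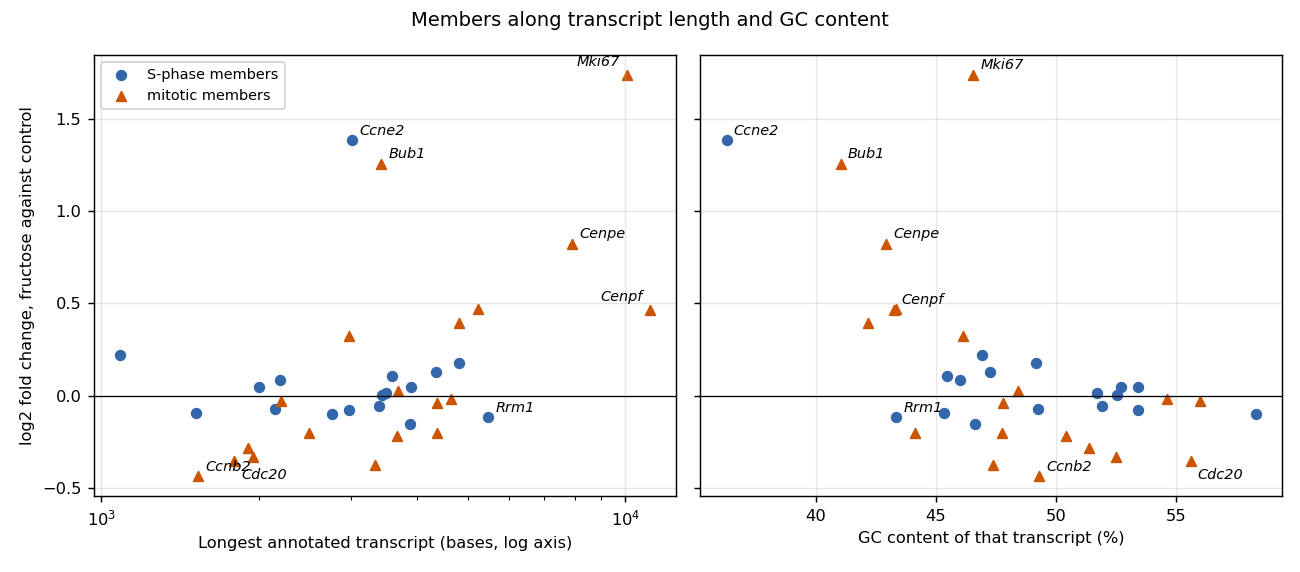
Log2 fold change of the 36 genes against the length of the longest annotated transcript (left, log axis, bases) and against its GC content (right, %). Circles are S-phase and triangles mitotic genes; long mitotic transcripts such as Mki67, Cenpe and Cenpf lie high and short ones such as Ccnb2 and Cdc20 lie low.

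With both trends removed from each library, Mki67 kept its call (1.25, edgeR adjusted p = 0.0043) and Rrm1 gained one, whereas 8.47% of all genes were called, 524 higher (4.07%) and 567 lower (4.4%), against 2001 higher and 1379 lower before. The values of Top2a (0.08), Kif11 (-0.02) and Cenpf (-0.20) came close to 0 or below it, and those of Bub1 (0.90) and Cenpe (0.26) shrank. On the low side, Aurkb (-0.13), Cdc20 (-0.10) and Aurka (-0.10) also moved towards 0, while Birc5 stayed at -0.43. The medians were then 0.057 for the S-phase genes and -0.10 for the mitotic genes, and rho with length over the mitotic genes was 0.281. Over the S-phase genes, rho with length moved from -0.0294 to -0.463, and rho with GC content from -0.196 to 0.365. The trends taken out were fitted over all genes tested, and whether they suit the S-phase genes, Rrm1 among them, was not tested.

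Further genes of replication gave few calls. Of 48 other replication genes, 46 were tested, 2 were called higher and 3 lower (10.9%, against 26.2% of all genes tested), with a median log2 fold change of -0.034. Topbp1, a checkpoint and initiation scaffold, rose by 0.73 and Rfc1, the large subunit of the clamp loader, by 0.44 (adjusted p = 0.0090 and 0.017). Tk1, thymidine kinase, fell by 0.38, Rfc2, a small clamp loader subunit, fell by 0.35 and Gmnn, the licensing inhibitor geminin, fell by 0.34. Rpa3 and Pold2, the replication genes with the highest level per length after the members, were not called (-0.35 and -0.24). With both trends removed, no gene of this list was called higher, Rfc2 (-0.45) stayed lower, and Orc5 (-0.58) and Rpa3 (-0.79) became so; Tk1 and Gmnn lost their calls.

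Calls among further genes of mitosis went in both directions. All 52 were tested, 5 were called higher and 3 lower (15.4%, against 26.2% of all genes), and the median was 0.12. DESeq2 called 1 higher and 2 lower. Kif20b, a motor of cell division, had 4 and 2 counts in control and 18 and 22 in fructose, a log2 fold change of 2.35. Ndc80, a kinetochore subunit, and Kif15, a spindle motor, were higher by 1.54 and 1.45, also at low counts. Smc4, a condensin subunit, had 50 and 48 counts in control and 161 and 164 in fructose, and its rise by 1.38 (edgeR adjusted p = 0.0012) was the only one of these 5 still called with both trends removed (0.91, adjusted p = 0.021). Smc2, the partner of Smc4 in condensin, was higher by 1.04. Ube2c, the ubiquitin-conjugating enzyme of the anaphase-promoting complex, fell by 0.52, Cenpa, the centromeric histone, fell by 0.44 and Pttg1, securin, fell by 0.26. Cks1b, a Cdk1 subunit of high level per length, was not called (-0.20).

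Among genes that govern the entry into the cycle, calls fell on D-type cyclins, G1 kinases, p21 and some pocket protein, E2F and MuvB genes. The share called was 83.3% of the G1 cyclins and kinases and 16.7% of the tested CDK inhibitors, against 26.2% of all genes tested. Of 6 G1 cyclins and kinases, Ccnd2 (0.74) and Cdk6 (0.68) were higher, and Cdk4 (-0.36), Ccnd3 (-0.36) and Cdk2 (-0.34) were lower, with Cdk4 at 165 and 170 CPM in control and 130 and 131 CPM in fructose. Of 7 CDK inhibitors 6 were tested, and Cdkn1a, which encodes p21, was lower, at 240 and 272 CPM in control and 188 and 196 CPM in fructose (-0.42, edgeR adjusted p = 0.0059). Cdkn1c, an inhibitor of high level in fetal tissue, was not called (-0.21). Of 15 pocket protein, E2F and MuvB genes 3 were called, a share of 20.0% near the 26.2% of all genes, and DESeq2 called only Rb1. Rb1, the retinoblastoma gene, was higher by 0.80, Lin54, the MuvB subunit that binds the CHR, by 0.72 and Tfdp2, an E2F partner, by 0.43. E2f4 and Tfdp1, the E2F genes of highest level per length in this list, were not called. With both trends removed, Cdk2 (-0.35) and none of the other genes named here kept a call.

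**Figure D5:**
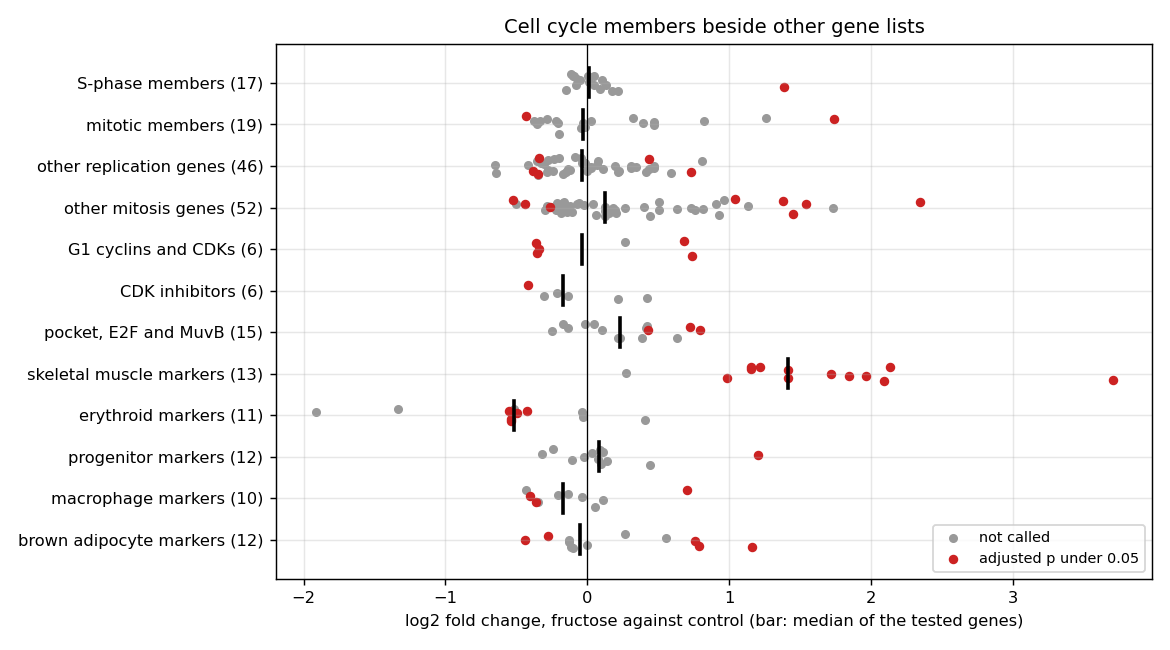
Log2 fold change, fructose against control, of each tested gene in the cell cycle lists and the cell type marker lists, with the number tested in brackets, red points for an adjusted p under 0.05 and a bar at the median. The 4 Y-linked genes, with no counts in fructose, are not drawn; skeletal muscle markers lie furthest right, with a median of 1.42.

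Many skeletal muscle markers were higher and some erythroid markers lower in fructose beside these values, against 15.5% of all genes called higher and 10.7% lower. Of 14 skeletal muscle markers 13 were tested and 12 were called higher, with a median of 1.42, and their summed level was 301 and 388 CPM in control and 860 and 642 CPM in fructose. Acta1, Mylpf and Tnnt3 were the muscle markers of highest level per length, and Myod1, a myogenic factor, had 6 to 10 counts in every library. Of 11 erythroid markers 5 were called lower, led in level by Hbb-bs, Hba-a2 and Hba-a1. The erythroid markers summed to between 15348 and 19295 CPM in control and between 11835 and 12208 CPM in fructose. With both trends removed, 1 erythroid marker was called lower and 0 higher, and their median log2 fold change was -0.22 instead of -0.52. Of 12 progenitor and fibroblast markers 1 was called, Dpp4, at 1.20, which missed the threshold in DESeq2 (adjusted p = 0.058) and after removal of both trends (0.75, adjusted p = 0.15), and their sums of 4522 to 5224 CPM in control and 5099 to 5147 CPM in fructose overlapped. Of 10 macrophage markers 1 was higher and 2 lower (30.0%, near the share of all genes), and of 12 brown adipocyte markers 3 were higher and 2 lower (41.7%). The part of these cell types in the values of Mki67, Ccne2 and Ccnb2 was not tested.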

How the data were processed

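RNA-seq libraries of fetal BAT (E18.5; 2 control, 2 fructose) were analysed from gene counts deposited by the authors. Per the paper's methods and the labels, reads were filtered with Fastp, mapped to mm10 with Bowtie2 (2.0.0.5) and Tophat (2.0.0), assembled with StringTie (2.2.0), merged with Cuffmerge, and counted per gene without normalization; the counting tool and its use of strand are not given in the sources used here. The library tables held the same counts as the total table. Symbols, coordinates, transcript lengths and GC content came from GENCODE (GRCm38); 43 identifiers had no match. Genes kept by filterByExpr (12888) were tested in R 4.3.3 with edgeR 4.0.16 (TMM, quasi-likelihood, two-sided, no covariate), adjusted over all of them. Levels are TMM-normalized CPM.

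Alternatives were DESeq2 1.42.0, its size factors, library size scaling, other filters, a block for the replicate number, offsets that take out length and GC content trends (lowess, span 0.3), library sizes without mitochondrial and haemoglobin genes, and leaving out each library. Fits were tested on simulated data. The members and gene lists were chosen with earlier results of these data known. The text describes all members, the highest and lowest called genes and the genes of highest level per length of the other cell cycle lists, the leading genes of each marker list and the Y-linked genes. Dpp4, Myod1, Smc4, Smc2 and Orc5 were named after their values were seen. Total counts per library (18542897 to 23645147) put a gene with 0 counts at up to 0.127 to 0.162 CPM, taken as 3 counts, which covers counting error only.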

Additional observations from a re-analysis of the deposited data

How the results depend on the processing

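No called value changed direction in any setting. The call of Mki67 held in all 13 alternatives and with each library left out. The number of S-phase genes called, 1 in the report, was 2 (Ccne2 and Rrm1) with the length trend removed, with or without the replicate block. The number of mitotic genes called, 2 in the report, was 1 by DESeq2, with scaling by library size only and with the length trend or both trends removed, with or without the replicate block, 3 (Top2a added) with no filter on low counts, and 4 with the GC content trend removed together with the replicate block. With each library left out, these numbers ranged from 0 to 1 and from 1 to 5; such fits assume that a lone library varies like those of the other group. The median log2 fold change of the S-phase genes was 0.074 when scaled to library totals, 0.057 without both trends and 0.059 with the block added, and ranged from -0.033 to 0.099 with each library left out. That of the mitotic genes ranged from -0.15 to 0.091, in the same fits. The difference between the medians (S-phase minus mitotic), 0.042 in the report, was -0.087 without control replicate 2, up to 0.12 with another library left out, and 0.14 with the length trend and 0.16 with both trends removed, with or without the replicate block. The cause of these shifts was not tested.

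Same-numbered libraries did not deviate together (correlation of deviations -0.0519). The labels do not say what the replicate number stands for, and this value cannot show whether same-numbered libraries share a litter or batch. The replicate block left 1 S-phase and 2 mitotic genes called. Over all genes tested, 3380 were called, against 2162 after removing the length trend, 2223 after removing the GC content trend and 1091 after removing both. Scaling by library size only gave 2242 higher and 857 lower, against 2001 and 1379. Of the uncalled genes, 21 changed sign in some setting, the largest of them at a log2 fold change of 0.47. At fewer than 60 counts a library, Gins1, Bub1, Cenpe and Cenpf have intervals too wide to show a small change.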
